A study of Sus scrofa with 2 samples.

Results

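The genes described here are ERN1 and 9 other genes of the unfolded-protein response and the integrated stress response: EIF2AK3, ATF6, XBP1, ATF4, DDIT3, PPP1R15A, ASNS, TRIB3 and HERPUD1. Entries were taken by gene symbol, gene number or protein name from the tables of both RNA-seq libraries, which together listed 12535 transcripts. An entry was found for 8 of the 10 genes, and 7 of these had at least 20 reads in the libraries summed. XBP1 and HERPUD1 had no entry under their symbol, gene number or protein name, so they were not analysed here. The group was chosen by a rule written with the read counts and ratios of these libraries known, so its values are given as a description, without a test.

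The RNA came from biceps femoris, a skeletal muscle of the hind limb, of newborn piglets made by somatic cell nuclear transfer and sampled on Day 1 after birth. The abnormal cloned piglets had an enlarged tongue (macroglossia), could not stand or walk properly and had an umbilical defect, and the normal cloned piglets served as controls. One library was made from a pool of 3 abnormal piglets and one from a pool of normal piglets, 4 according to the methods and 3 according to the sample labels. All 3 abnormal piglets and 2 of the normal piglets were cloned from embryonic fibroblasts of a male Large White pig, while ear fibroblasts of a second male gave the other 2 normal piglets, so donor and group cannot be fully told apart. With 1 library per group there was no replicate check, the piglets of a pool could not be separated, and every difference below is one between these libraries, with intervals that cover counting error only. Below, abnormal and normal reads are the reads counted in the respective library, and the abnormal value is given first.

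The unfolded-protein response is set off when unfolded proteins collect in the endoplasmic reticulum (ER), the compartment where secreted and membrane proteins fold. Its sensors in the ER membrane are IRE1 (encoded by ERN1), PERK (EIF2AK3) and ATF6. IRE1 splices the mRNA of the transcription factor XBP1, PERK phosphorylates the translation factor eIF2, and ATF6 is cut in the Golgi apparatus to release a transcription factor. Phosphorylation of eIF2, which other kinases also carry out when amino acids or heme are short or viral RNA is present, lowers protein synthesis in general but raises translation of ATF4, and this common branch is the integrated stress response. In skeletal muscle the pathway is known for its part in fibre formation and in the reaction to exercise, fasting and disease. Splicing of XBP1, phosphorylation and cleavage are not seen in counts of reads per transcript.

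Summed over the transcripts of the deposited tables, the libraries held 6.38 M (abnormal) and 6.52 M (normal) uniquely mapped reads. The 13 transcripts of the mitochondrial genome took 36.0% of the abnormal and 46.1% of the normal library. For the 7493 genes that each library covered with 10 reads or more, the log2 ratio of RPKM (reads per kb of transcript, scaled to the library total, abnormal over normal) had a median of 0.36, so ratios are also given after subtraction of this median. The muscle fibre markers with an entry, ACTA1 and MYLPF (2 of 8), summed to an RPKM of 73699 and 66160, and no marker with an entry was at 0 in either library. The summed RPKM of leukocyte markers (5 of 6 with an entry) was 13.8 (abnormal) and 20.4 (normal), that of B and plasma cell markers (2 of 6) 2.10 and 2.30, that of fibroblast markers (5 of 6) 1358.4 and 1509.9, and that of endothelial markers (4 of 5) 44.1 and 41.8. Log2 ratios lay above 0 for 1 of 5 leukocyte, 1 of 5 fibroblast and 2 of 4 endothelial markers. Among endothelial markers, KDR had 297 and 181 reads, VWF 48 and 29, PECAM1 627 and 699, and TEK 75 and 82. Among leukocyte markers, PTPRC had 5 and 22, AIF1 19 and 44, and CSF1R 95 and 91. PDGFRA, the fibroblast marker above 0, had 71 and 40. Red blood cell markers (3 of 5) summed to 485.0 and 698.5. Of these, HBB had 2692 and 4003 reads, HBM 22 and 19, and ALAS2 86 and 84. Liver markers (3 of 5) summed to 42.7 and 61.0. Of these, ALB (albumin) had 12 and 271 reads, SERPINA1 14 and 38, and APOA1 298 and 281. The part of the mitochondrial share, the markers and the donor in the ratios below was not tested. In bulk muscle, more cells of a type and more RNA per cell cannot be told apart.

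Of the 8 genes with an entry, ERN1, ATF6, PPP1R15A and ASNS were called higher in the abnormal library, and none was called lower. A call here required a false discovery rate of at most 0.001 by the Audic-Claverie test on the reads, adjusted over all 12535 transcripts, and an RPKM that differed at least 2-fold, which is 1 on the log2 scale. Of all transcripts, 12.0% were called higher and 1.45% lower by the same rule. With the median ratio of all genes set to 0 (median-ratio rescaling), the background was 6.48% higher and 3.97% lower, and the same 4 genes were called higher. When edgeR assumed a biological variation of 0.2 only the calls of ERN1 and ATF6 were kept, at 0.4 none was, and ERN1 had too few normal reads to enter where 10 reads were required in both libraries. Since the group was chosen with these values known, nothing is read from the count of 4 against that background.

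**Figure D1:**
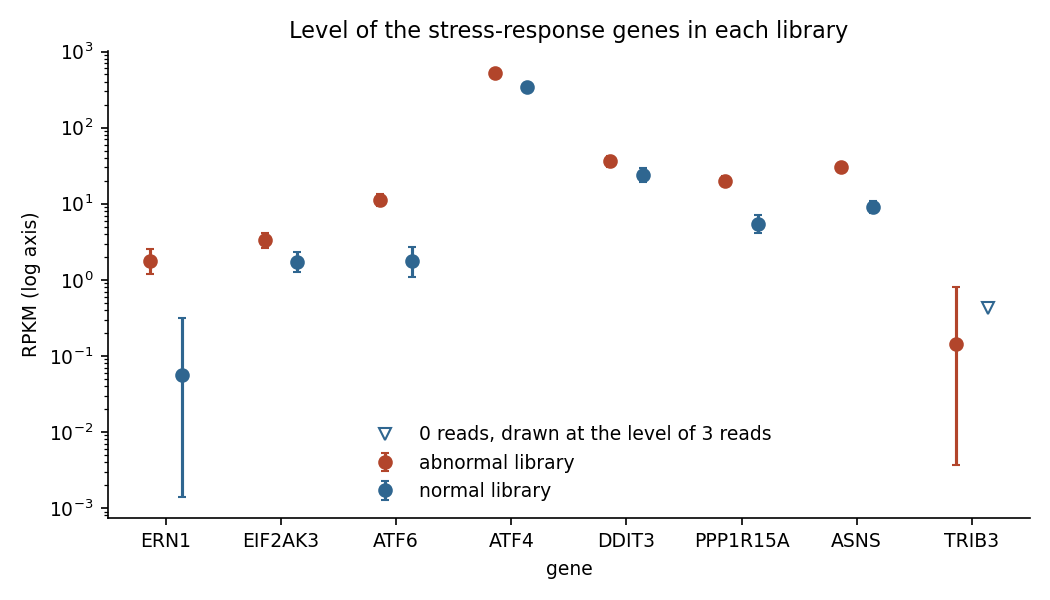
RPKM on a log axis of the 8 stress-response genes with an entry, in the abnormal and the normal library (1 library each); bars are exact 95% Poisson intervals of the read count. ATF4 lies highest in both libraries, at 523.7 and 343.3, and ERN1 shows the widest gap between the libraries, from 1.77 down to 0.0559.

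ERN1, which encodes the kinase and ribonuclease IRE1, had 31 reads in the abnormal library and 1 read in the normal library. Its RPKM was 1.77 (95% Poisson interval 1.20 to 2.51) against 0.0559 (0.00142 to 0.312). The gene was thus present at a low level in one library and near the limit of the depth in the other, where 3 reads correspond to an RPKM of 0.168. The log2 ratio was 4.99 (95% Wilson interval 2.45 to 7.52), a 31.7-fold difference whose interval, 5.47 to 183.47, is wide because it rests on 1 read. After subtraction of the median given above the log2 ratio was 4.63 (2.09 to 7.16), and with 1 added to every RPKM it was 1.39. The entry (gene 100510978) is a transcript model of 2745 bases on chromosome 12, 12476768 to 12508945 of Sscrofa9, plus strand. Reads covered 39.4% of it in the abnormal library, 1082 bases, and 1.79%, the 49 bases of a single read, in the normal library. The 31 reads were therefore spread over many positions of the model and not piled on one. Among the 8140 transcripts with at least 20 reads summed, 4 had a log2 ratio at or above that of ERN1, ERN1 included. For this ranking a count of 0 was set to 3 reads, while the 1 normal read of ERN1 was kept. Transcripts with 0 normal reads could therefore rank below ERN1, and its rank depends on this setting. A gene with 1 read in the normal library was called higher from 17 reads in the abnormal library upwards.

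EIF2AK3, which encodes the sensor kinase PERK, was counted with 84 abnormal and 45 normal reads. The RPKM was 3.31 (2.64 to 4.10) against 1.74 (1.27 to 2.32), and the Poisson intervals did not overlap. The log2 ratio of 0.93 (0.41 to 1.45) missed the threshold of the call, and after subtraction of the median it was 0.57 (0.05 to 1.09). PERK mRNA was thus nearer to the bulk of the genes than ERN1 was. The entry (gene 100513348, chromosome 3, 52496620 to 52579270, plus strand) is 3976 bases long and was covered to 59.4% and 36.9%.

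ATF6 encodes the sensor that is released as a transcription factor for ER chaperone genes. It was counted with 137 abnormal and 22 normal reads, an RPKM of 11.2 (9.40 to 13.2) against 1.76 (1.10 to 2.66). The difference was 6.36-fold (4.07 to 9.94), a log2 ratio of 2.67 (2.03 to 3.31) that exceeded those of 98.1% of the transcripts with at least 20 reads summed. In the normal library ATF6 and EIF2AK3 stood at nearly the same level, with overlapping intervals, whereas in the abnormal library the intervals were apart and ATF6 was the higher. The log2 ratio of ATF6 exceeded that of EIF2AK3 by 1.74 (0.90 to 2.57). The entry (gene 100158076, chromosome 4, 92291550 to 92486277, minus strand, 1919 bases) was covered to 87.6% and 41.4%. ATF6B, which encodes the related ER membrane protein, was counted with 126 abnormal and 114 normal reads and a log2 ratio of 0.18 (-0.19 to 0.54), which was 2.49 (1.75 to 3.24) below that of ATF6. The ratios of these related genes thus differed by more than counting error. The 7 pairs of genes whose ratios are compared here were chosen after their values were seen, so the intervals describe counting error and are no test.

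**Figure D2:**
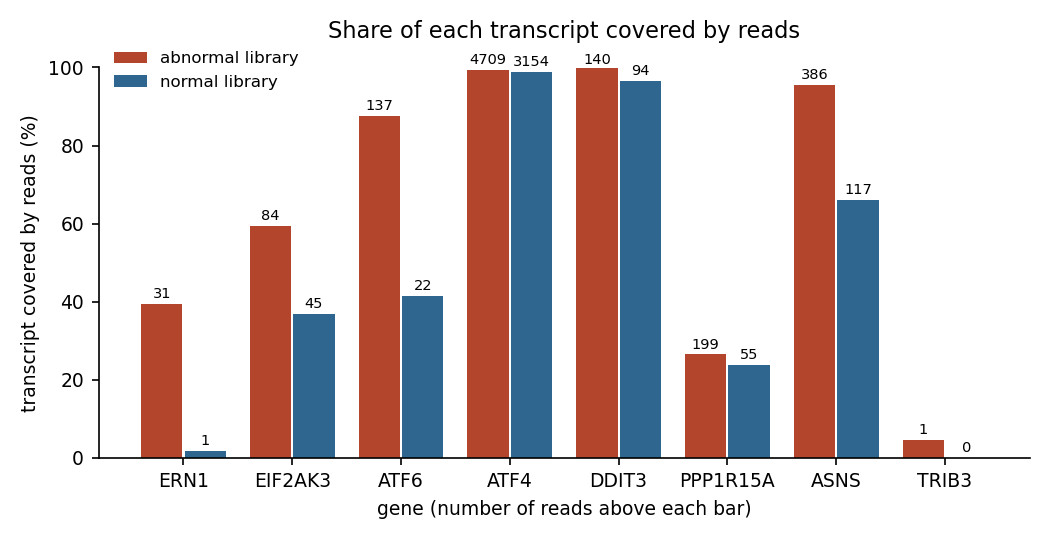
Percent of each transcript model covered by reads in the abnormal and the normal library, with the number of reads above each bar. ERN1 is covered to 39.4% and 1.79%, ATF4 and DDIT3 are covered almost completely in both libraries, and PPP1R15A stays at 26.5% and 23.7% in spite of 199 and 55 reads.

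ATF4 and DDIT3 are the transcription factors of the PERK and eIF2 branch. ATF4 activates genes of amino-acid supply and of the stress response, and its amount is known to be set mainly by translation. ATF4 was counted with 4709 abnormal and 3154 normal reads, an RPKM of 523.7 (508.8 to 538.8) against 343.3 (331.4 to 355.5). This put the gene at the 98.9th (abnormal) and 98.4th (normal) percentile of detected transcripts. Its log2 ratio was 0.61 (0.54 to 0.67), a 1.53-fold difference (1.46 to 1.60), and 0.25 (0.18 to 0.31) after subtraction of the median, so the gene was not called. The entry (gene 100144302, chromosome 5, 5062591 to 5064668, minus strand, 1410 bases) was covered to 99.3% and 98.9%.

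DDIT3 encodes CHOP, a factor downstream of ATF4 that is known for its part in cell death under lasting stress. It was listed with 140 abnormal and 94 normal reads, an RPKM of 36.2 (30.4 to 42.7) against 23.8 (19.2 to 29.1). The log2 ratio was 0.61 (0.23 to 0.98), and 0.25 (-0.13 to 0.62) after subtraction of the median, an interval that includes 0. ATF4 and DDIT3 thus had almost equal ratios, and neither stood apart from the bulk of the genes, with 59.7% and 59.5% of the transcripts at or below them. The DDIT3 entry (ENSSSCG00000000432, chromosome 5, 21618578 to 21619286, plus strand, 607 bases) was found by its protein name only.

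PPP1R15A, ASNS and TRIB3 are known targets of ATF4 or CHOP. PPP1R15A encodes GADD34, the inducible subunit of the phosphatase that removes the phosphate from eIF2. It was counted with 199 abnormal and 55 normal reads, an RPKM of 19.96 (17.3 to 22.9) against 5.40 (4.07 to 7.03). The difference was 3.70-fold (2.75 to 4.98), a log2 ratio of 1.89 (1.46 to 2.32) and of 1.53 after subtraction of the median. This ratio was 1.28 (0.71 to 1.85) above that of DDIT3. PPP1R15B, which encodes the constitutive subunit of the same phosphatase, had 89 against 22 reads, its log2 ratio being 2.05 (1.38 to 2.71), so that the ratios of the pair differed by -0.16 (-0.96 to 0.64). That interval leaves room for a difference in either direction. The reads of PPP1R15A lay on 414 bases (26.5%) of the model in one library and 371 bases (23.7%) in the other, so its level rests on this fraction of the 1563 bases. The entry is ENSSSCG00000003155, chromosome 6, 37823517 to 37825139, minus strand.

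ASNS, asparagine synthetase, makes asparagine from aspartate. It was counted with 386 abnormal and 117 normal reads, an RPKM of 30.5 (27.5 to 33.7) against 9.04 (7.47 to 10.8). The difference was 3.37-fold (2.74 to 4.14), a log2 ratio of 1.75 (1.46 to 2.05) and of 1.39 after subtraction of the median. ASNS exceeded 91.7% and PPP1R15A 93.2% of the transcripts with at least 20 reads summed. The log2 ratio of ASNS was 1.14 (0.84 to 1.45) above that of ATF4, and that of ATF6 was 2.06 (1.41 to 2.71) above it. The entry (gene 100312961, chromosome 9, 72736488 to 72761463, minus strand, 1987 bases) was covered to 95.5% and 66.1%.

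TRIB3, which encodes a pseudokinase that binds ATF4 and the kinase AKT, had 1 read in the abnormal library and was not listed in the normal library. Its RPKM was 0.145 and 0, where 3 reads correspond to 0.436 and 0.426. A difference was not detectable at this depth, and no fold is given. The entry (gene 100518810) is a model of 1080 bases on chromosome 17, 36716172 to 36752493, minus strand.

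**Figure D3:**
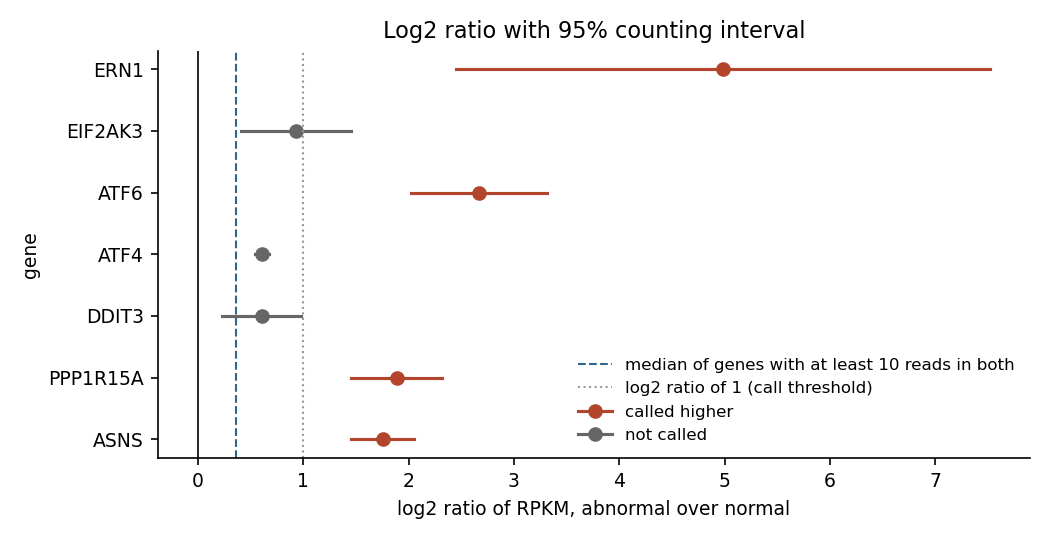
Log2 ratio of RPKM (abnormal over normal) of the 7 stress-response genes with at least 20 reads summed, with 95% Wilson intervals; a further line marks the median of all genes, 0.36. All 7 lie above 0, as do 68.9% of all transcripts with as many reads. They run from 0.61 for DDIT3 and ATF4 to 4.99 for ERN1, and the interval of DDIT3 includes the median.

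The order of the levels, compared per length as RPKM, was the same in both libraries: ATF4, DDIT3, ASNS, PPP1R15A, ATF6, EIF2AK3, ERN1 and TRIB3. The reads of PPP1R15A lay on 26.5% and 23.7% of its model, so its place in this order depends on the full model length being used. In the abnormal library the intervals of DDIT3 and ASNS overlapped, and all other neighbours were apart. In the normal library ATF6 and EIF2AK3 overlapped, as did ERN1 and TRIB3. The distances changed although the order did not. DDIT3 and ASNS were close in the abnormal library, at 36.2 and 30.5, and apart in the normal library, at 23.8 and 9.04. ERN1 moved from the 36.9th percentile of the 11744 transcripts detected in the abnormal library to the 0.964th of the 11720 detected in the normal library. The 4 called genes lay between an RPKM of 1.77 and 30.5 in the abnormal library, whereas the most abundant gene, ATF4, was not called.

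**Figure D4:**
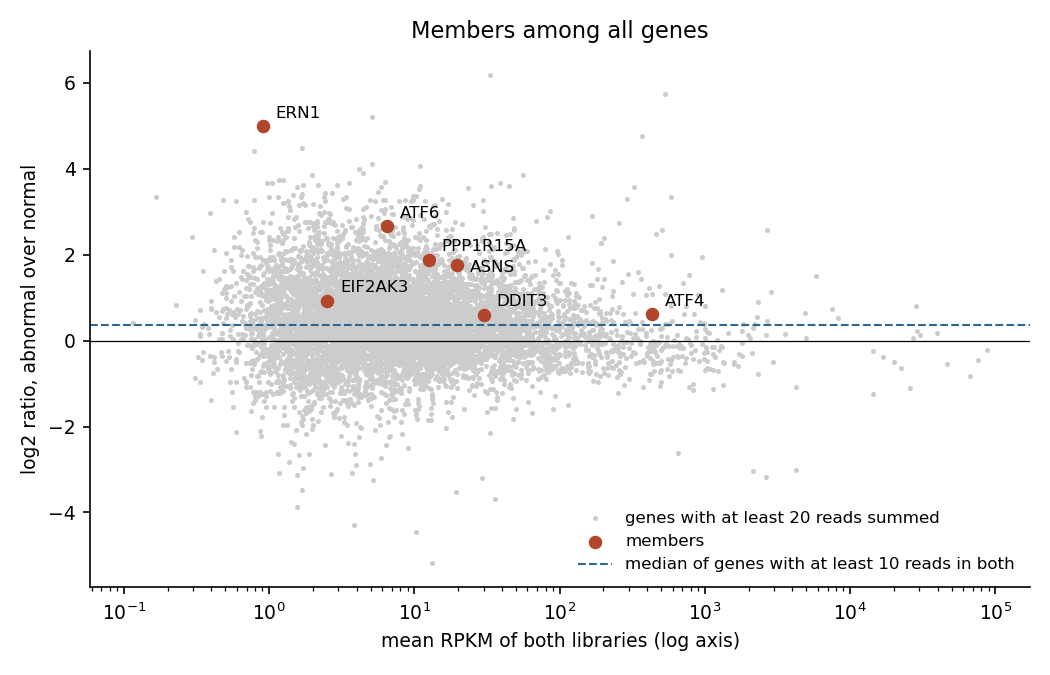
Log2 ratio (abnormal over normal) against the mean RPKM of the libraries on a log axis for the 8140 transcripts with at least 20 reads summed, with the 7 stress-response genes marked. ERN1 lies at the upper edge of the cloud at a low level, ATF6, PPP1R15A and ASNS in its upper part, and ATF4 and DDIT3 near its centre line.

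The other genes of the pathway were described through 8 lists of 128 genes, of which 88 had an entry and 81 at least 20 reads summed. In the lists together 25 genes were called higher and none lower, and 11 were called higher after median-ratio rescaling. The 81 genes had a median log2 ratio of 0.64, beside 0.39 over all 8140 transcripts with as many reads. Of the 81, 74 lay above 0, beside 5607 of the 8140 (68.9%). Above the median of 0.36 lay 53 of the 81, beside 4200 of the 8140. Of all transcripts, 12.0% were called higher without rescaling and 6.48% after it. These shares are over all 12535 transcripts, of which 8140 had at least 20 reads summed, against 81 of the 88 listed genes. With 0 normal reads a transcript was called higher only from 13 abnormal reads upwards, so some transcripts could not be called. The 12.0% and 6.48% are therefore low marks for lists of mostly well-covered genes, here and below. In each list, genes with 10 reads or more in each library were ranked and those at the ends, together with the most abundant gene, were to be named. Any other gene named below was chosen after its values were seen.

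Shares near the background of 12.0% were called higher in the lists nearest to the sensors, 14.3% and 16.7% of the genes with an entry. Of the 7 regulators of the sensors and eIF2 kinases with an entry, 1 was called higher, the PPP1R15B gene given above, and the median log2 ratio was 0.18. MBTPS1, the site-1 protease that cuts ATF6, stood at 0.72 (0.51 to 0.93) and was not called. RTCB is the ligase that joins the XBP1 mRNA after IRE1 has cut it. The entry with more reads of its 2 had 23 against 22 reads, which covered 9.62% and 15.2% of the model. Its log2 ratio was 0.10 (-0.74 to 0.93). EIF2AK2, the eIF2 kinase that senses double-stranded RNA, had 12 against 19 reads, its log2 ratio being -0.63 (-1.65 to 0.39). Of the 6 genes with an entry in the list of eIF2, its exchange factor eIF2B and EIF2A, EIF2B5 was called higher at 1.21 (0.90 to 1.53), and the call was lost after rescaling. EIF2A, a separate initiation factor, stood at 0.99 (0.78 to 1.19), EIF2S3 at 0.23 (0.08 to 0.38) and EIF2B2 at 0.10 (-0.15 to 0.35), and none of these was called.

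Targets of ATF4 and CHOP held the higher list medians. Of the 9 signalling targets with an entry, 3 were called higher, 33.3% beside 12.0% of all transcripts. The median of the 8 with at least 20 reads was 1.10. ATF3, a stress-induced transcription factor, was counted with 872 abnormal and 110 normal reads, RPKM values of 152.1 and 18.8, and its log2 ratio was 3.02 (2.73 to 3.30). ATF5, a factor related to ATF4, had 302 against 62 reads, its log2 ratio being 2.32 (1.92 to 2.71). The third was STC2, a secreted glycoprotein, with 27 and 5 reads, and its call was lost after rescaling. At the other end stood VLDLR, a lipoprotein receptor, at 0.24 (0.07 to 0.42) and CEBPB, a partner of CHOP, at 0.34 (-0.14 to 0.82), neither of them called.

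Of the 11 targets for amino-acid synthesis and uptake with an entry, 5 were called higher, 45.5% beside 12.0% of all transcripts. The median of the 9 with at least 20 reads was 1.22. PSAT1, an enzyme of serine synthesis, had 83 against 20 reads, its log2 ratio being 2.08 (1.39 to 2.78). ALDH18A1, which acts in proline synthesis, stood at 1.22 (0.77 to 1.67) and was not called after rescaling. SLC38A2, a transporter of neutral amino acids, had the highest ratio of the list, 3.67 (1.74 to 5.61), but on 25 and 2 reads. The remaining called genes were MTHFD2, with 30 and 7 reads, and PCK2, with 35 and 8, and neither was called after rescaling. PHGDH, the first enzyme of serine synthesis, stood at 0.40 (-0.12 to 0.92), and SLC1A5, a glutamine transporter, at -0.11 (-0.46 to 0.24). Of the serine enzymes named here, PSAT1 was thus called and PHGDH was not.

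The cytosolic tRNA ligases, which load amino acids onto tRNA, had the highest median of the 8 lists, 1.34 over the 9 genes with at least 20 reads. Of the 10 with an entry, 6 were called higher, 60% beside 12.0% of all transcripts. After rescaling 4 of these, AARS, IARS, NARS and CARS, were still called, where 6.48% of all transcripts were. AARS, the ligase for alanine, had 859 and 158 reads, RPKM values of 55.6 and 10.004, and its log2 ratio was 2.47 (2.23 to 2.72). IARS, for isoleucine, had 1225 against 325 reads, its log2 ratio being 1.95 (1.77 to 2.12). SARS, for serine, was the most abundant, at an RPKM of 103.6 and 41.0, with a log2 ratio of 1.34 (1.19 to 1.48). EPRS, given for the entry with more reads of its 2, at 0.83 (0.69 to 0.97) and LARS at 0.41 (0.21 to 0.62) were not called. NARS, the ligase for asparagine, the amino acid that ASNS makes, had 1066 and 328 reads, and the log2 ratio of ASNS differed from it by 0.02 (-0.33 to 0.37).

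Of 15 ER chaperones and folding enzymes with an entry, 6 were called higher, 40% beside 12.0% of all transcripts. After rescaling 1 of these, DNAJB9, was still called, where 6.48% of all transcripts were. The median of the 14 with at least 20 reads was 0.47. DNAJB9, a co-chaperone known as a target of XBP1, had 214 against 57 reads, its log2 ratio being 1.94 (1.52 to 2.36). HSPA5, the main ER chaperone BiP and a classic target of ATF6, had 2321 against 957 reads, its log2 ratio being 1.31 (1.20 to 1.42). ERO1L, an oxidase that serves disulfide formation, stood at 1.73 (0.93 to 2.53), and HYOU1, PDIA4 and CANX between 1.03 and 1.32. HSP90B1, the most abundant of the list, had an RPKM of 269.5 and 172.6 and a log2 ratio of 0.64 (0.56 to 0.72), PDIA3 stood at 0.11 (-0.01 to 0.22) and ERO1LB at 0.12 (-0.87 to 1.12), and none of these was called. The chaperones thus spread from near 0 to almost 2 on the log2 scale, and the calls of all but 1 depended on the scaling.

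Of 12 genes of ER-associated degradation with an entry, 2 were called higher, 16.7% beside 12.0% of all transcripts. The median of the 10 with at least 20 reads was 0.53. SEL1L, the adaptor of the ubiquitin ligase of the ER membrane, had 150 against 45 reads, its log2 ratio being 1.77 (1.29 to 2.25), also called after rescaling. The other was EDEM3, a mannosidase, with 21 and 3 reads in the better covered of its 2 entries, and its call was lost after rescaling. ERLEC1 stood at 0.95 (0.72 to 1.18), VCP, the ATPase that pulls proteins from the membrane and the most abundant of the list, at 0.57 (0.43 to 0.70), FAF2 at 0.15 (-0.17 to 0.46) and EDEM2 at -0.67 (-1.40 to 0.06), and none of these was called. Of 18 genes of entry into and export from the ER, 1 was called higher, 5.56% beside 12.0% of all transcripts. This was SEC61A1, a subunit of the translocation channel, at 1.23 (0.89 to 1.56), and it was not called after rescaling. The list median of 0.37 was close to that of all transcripts. SEC61A2 stood at 0.83 (0.54 to 1.12), SSR2, the most abundant, at -0.29 (-0.38 to -0.21) and SEC11C at -0.61 (-0.92 to -0.31), and none of these was called.

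**Figure D5:**
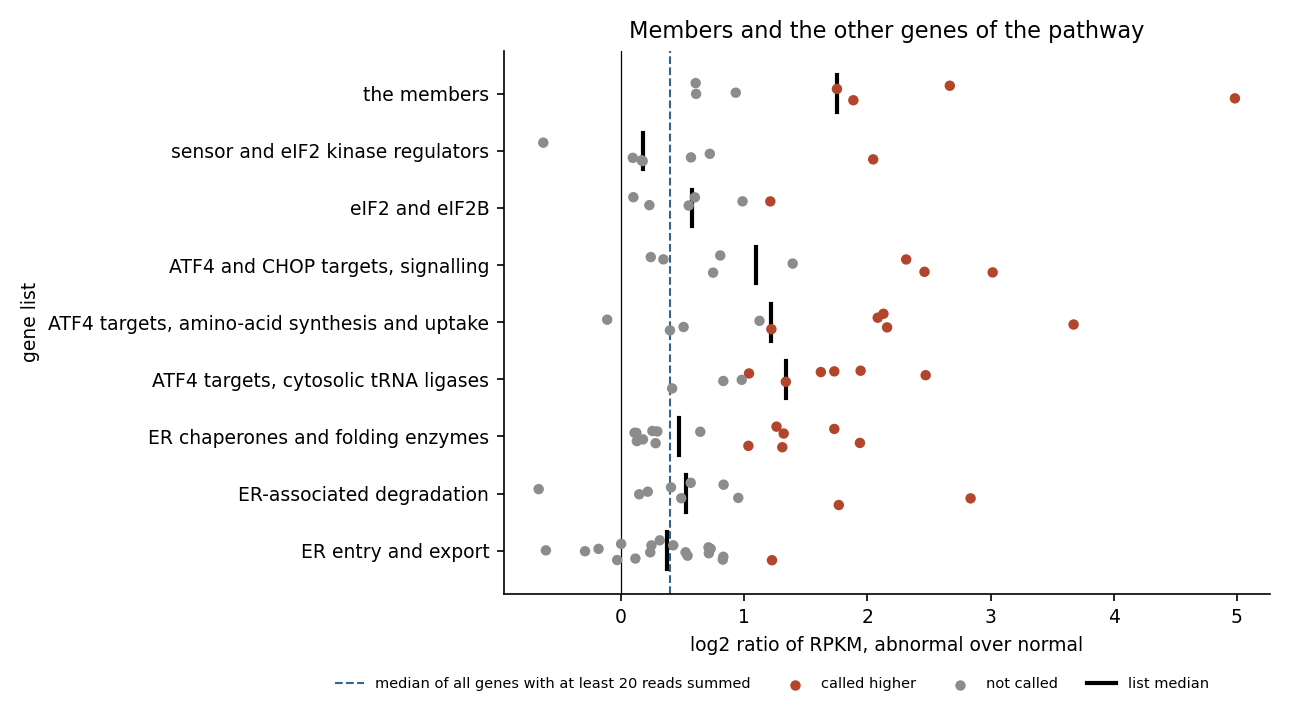
Log2 ratio of RPKM (abnormal over normal) of each gene with at least 20 reads summed, by list, with called genes in another colour, the list median as a bar and the median of all transcripts with as many reads, 0.39, as a dashed line. List medians run from 0.18 for sensor and eIF2 kinase regulators to 1.34 for tRNA ligases, beside 1.75 for the 7 genes of the chosen group.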

How the data were processed

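After trimming and quality filtering, the authors aligned reads to Sscrofa9 transcripts with SOAPaligner/soap2 (2 mismatches allowed). The deposited count is the number of unique reads of a transcript. The authors also deposited RPKM and the percent of each transcript covered. Transcripts without reads are left out and were taken as 0. Strand was not given in the sources used here.

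The members and lists were chosen with earlier results of these data known. Named were all 10 members and, per list, among genes with 10 reads or more in each library, the 2 highest and 2 lowest log2 ratios and the highest mean RPKM. Entries were matched by deposited symbol, gene number or protein name, and coordinates are those of the tables. No sequence table came with the data, so a planned motif search in promoters was not run.

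Calls used the two-sided Audic-Claverie probability with Benjamini-Hochberg adjustment over 12535 transcripts (FDR at most 0.001, log2 ratio at least 1, RPKM of 0 set to 0.001). The test compares 2 libraries, not conditions. It was tried on simulated counts that held counting error only. These had no variation between animals, so the trial says nothing about false calls between groups. Alternatives were median-ratio, TMM and mitochondria-free scaling, Fisher's exact test, edgeR 4.0.16 with assumed variation, a pseudocount of 1, a minimum of 10 reads in both libraries and matching without protein names. Python 3.11.15, scipy 1.17.1 and R 4.3.3 were used.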

Additional observations from a re-analysis of the deposited data

How the results depend on the processing

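The count of 4 genes of the chosen group called higher was the same with median-ratio rescaling, TMM factors and totals without mitochondrial transcripts. Fisher's exact test, a pseudocount of 1 and matching by symbol or gene number without protein names also left it at 4. It was 3 with at least 10 reads in both libraries, where ERN1 could not enter, 2 (ERN1 and ATF6) under edgeR with the biological variation assumed to be 0.2, and 0 under 0.4. The direction of all 28 recomputed log2 ratios of these genes was kept. Of all transcripts, 1510 were called higher and 182 lower. These counts became 812 and 498 with median-ratio rescaling, 751 and 548 with TMM, 986 and 366 without mitochondrial transcripts, 243 and 20 with edgeR at 0.2, and 2 and 1 at 0.4. The 25 pathway genes called higher became 11, 11, 16, 4 and 0 in the same order, and with TMM 1, SEC11C, was called lower. TMM and the mitochondria-free totals moved every log2 ratio by -0.39 and -0.25. No paired analysis was possible because each group has 1 library. Depth limits ERN1 in the normal library and TRIB3 in both most, and no leave-one-out value could be had.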

Other observations

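Some entries with names close to those of the chosen genes are other genes, and they were looked up after the data were seen. TRIB2, a relative of TRIB3, was counted with 44 abnormal and 13 normal reads, a log2 ratio of 1.79 (0.91 to 2.67). DDIT4L, which shares only part of its name with DDIT3, had 742 against 329 reads, its log2 ratio being 1.20 (1.02 to 1.39). ASNSD1, named for its asparagine synthetase domain, had 47 against 49 reads, its log2 ratio being -0.03 (-0.60 to 0.54). The 2 entries of NFX1, an X-box-binding factor other than XBP1, had 109 and 127 reads in one case and 44 and 14 in the other.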
